A study of Homo sapiens with 7 samples.

Results

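HEK-293 is an established line of human embryonic kidney cells, and 8 transcription regulators of kidney development were followed in it: PAX2, PAX8, LHX1, SIX2, SALL1, SALL2, EYA1 and WT1. They were taken by name as factors known from the early kidney, and all 8 have a row among the 19978 genes of the deposited count table. Poly(A)-selected RNA was sequenced from 7 samples after 48 h in 3 conditions, asking how acidosis and inhibition of the SR protein kinases change RNA in these cells. Control cells were kept at pH 7.4 with DMSO, the solvent of the inhibitor (2 samples). Acidosis was the same DMSO in medium acidified to pH 6.6 (3 samples). The SRPIN340 group had 10 µM of this SRPK inhibitor in medium of pH 7.4 (2 samples). By the study's methods its medium held DMSO at the same concentration as the other groups. All samples are unsorted cultures of 1 line with no genetic change named in the labels, and acid medium stands here for acidosis of a tissue. The labels name the samples of a group as repeats, so the tests below measure the spread between these repeats. The study's methods speak of replicates within each biological repeat, and how they were combined into 1 column per sample is not stated in the sources used here.

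The embryonic kidney forms from the ureteric bud, an epithelial tube, and the nephron progenitors, a mesenchyme that caps its tips. PAX2 and PAX8 are paired-domain factors that set up the renal lineage, and LHX1 is a LIM homeodomain factor needed for the nephric duct and for patterning of the early nephron. In the progenitors, the homeodomain factor SIX2 holds cells in the undifferentiated state, EYA1 acts with SIX2 and its paralogs as a coactivator with phosphatase activity, and the zinc finger proteins SALL1 and SALL2 belong to the spalt family, of which SALL1 is required for kidney formation. WT1 is a zinc finger factor of the progenitors that stays on in podocytes, the filtering cells of the glomerulus.

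On GRCh38 with GENCODE release 44, PAX2 (ENSG00000075891.23) lies at chr10:100735396-100829944 on the plus strand, and its canonical transcript has 10 exons. PAX8 (ENSG00000125618.18) lies at chr2:113215997-113278921 on the minus strand. LHX1 (ENSG00000273706.5) lies at chr17:36936785-36944612 on the plus strand. SIX2 (ENSG00000170577.8) is a short gene of 2 exons at chr2:45005182-45009452 on the minus strand. SALL1 (ENSG00000103449.13) lies at chr16:51135982-51152334 and SALL2 (ENSG00000165821.12) at chr14:21521080-21537216, both on the minus strand. WT1 (ENSG00000184937.16) lies at chr11:32387775-32435564 on the minus strand, with 22 annotated transcripts that the gene-level counts do not separate. Noncoding genes on the opposite strand overlap PAX8, LHX1, SALL1, SALL2, EYA1 and WT1 (PAX8-AS1 and WT1-AS among them), and the processed pseudogene TRAPPC2P2 overlaps EYA1 on its own strand. How reads from such overlaps were shared out was not tested, while PAX2 and SIX2 overlap no other annotated gene.

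The region before the start of transcription is shown for SIX2 and PAX2, which fell most of the factors in acidosis, and for SALL2, which rose most. These are the 250 bases upstream of the start that RefSeq gives on GRCh38.p14. For SALL2 that start lies inside the GENCODE gene given above, so part of its window overlaps the gene. SIX2 is at chr2:45009453-45009702 on the minus strand, PAX2 (the first of its 2 listed starts) at chr10:100735146-100735395 on the plus strand and SALL2 at chr14:21537122-21537371 on the minus strand. Each runs 5′ to 3′, and capitals mark matches on either strand to CCAAT (the CCAAT box), GGGCGG (the GC box) or TATAAA (the TATA box).
SIX2: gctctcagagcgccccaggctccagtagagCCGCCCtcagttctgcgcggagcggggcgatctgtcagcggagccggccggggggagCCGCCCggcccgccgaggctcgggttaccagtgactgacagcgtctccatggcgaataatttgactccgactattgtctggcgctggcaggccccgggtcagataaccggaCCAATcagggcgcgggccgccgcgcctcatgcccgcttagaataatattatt
PAX2: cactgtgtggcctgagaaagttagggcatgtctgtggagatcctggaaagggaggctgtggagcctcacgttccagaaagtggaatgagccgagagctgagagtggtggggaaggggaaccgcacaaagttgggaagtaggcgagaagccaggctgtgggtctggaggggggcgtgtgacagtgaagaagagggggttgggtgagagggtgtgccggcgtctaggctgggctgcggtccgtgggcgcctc
SALL2: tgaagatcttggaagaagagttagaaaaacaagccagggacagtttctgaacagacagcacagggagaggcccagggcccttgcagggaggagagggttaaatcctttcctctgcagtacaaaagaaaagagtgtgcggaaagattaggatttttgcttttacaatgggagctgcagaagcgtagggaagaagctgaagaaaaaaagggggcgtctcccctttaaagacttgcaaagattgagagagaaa
Upstream of SIX2, 1 CCAAT and 2 GC box matches were found, with a GC content of 65.6% and 26 CpG dinucleotides. No match was found upstream of PAX2, where GC content was 61.6% with 10 CpG, or upstream of SALL2, where it was 46.0% with 3 CpG. Of 35116 such windows over 27305 genes, 32.0% held CCAAT, 42.6% GGGCGG and 10.7% TATAAA, with a median GC content of 58.0% and a median of 11 CpG. Windows were given for 5 of the 8 genes (PAX2, PAX8, SIX2, SALL2 and WT1). A match describes these letters and is not a measured binding site.

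Library totals lay between 13615816 and 24110460 estimated counts, with the lowest totals in acidosis repeats 2 and 3. Values are given as CPM, a gene's count relative to its library's total after scaling by TMM, a factor that centres most genes on no change. This factor was 1.17 to 1.21 at pH 7.4, with or without SRPIN340, and 0.782 to 0.8 at pH 6.6, where the 100 most abundant genes held 24.1% to 24.8% of the counts against 15.2% to 15.4% elsewhere. Scaling by the unadjusted totals moved the middle of the 14863 tested genes in acidosis from a log2 fold change of -0.052 to one of -0.626, so changes in acidosis are relative to the typical gene. In bulk RNA, fewer cells that express a gene and less of its RNA per cell cannot be told apart. All 6 marker genes listed for HEK-293 (VIM, KRT8, KRT18, NEFL, NEFM and INA) were detected. Of 20 genes of the mature tubule 10 were detected, and UMOD, AQP2, SLC22A6, SLC22A8 and FOXI1 were at 0 in every sample.

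A gene was taken as detected when every library of at least 1 group held over 3 counts, and all 8 factors met this. PAX8 met it only with SRPIN340 and did not pass the expression filter, so 7 factors were tested. To compare genes, control CPM were divided by the length of the canonical transcript. SALL2 had the highest level, 13.6 ± 1.22 CPM per kb (SD, n = 2), which is percentile 68.7 of the tested genes. SALL1 followed with 10.9 ± 0.327, and then LHX1 with 4.49 ± 0.082 CPM per kb. EYA1 at 3.43 ± 0.292, WT1 at 2.97 ± 0.51 and SIX2 at 2.49 ± 0.559 came next, and in this run neighbouring genes overlapped in their samples. PAX2 was lower, at 1.62 ± 0.0956 CPM per kb or percentile 23.5, and PAX8 was at 0.022 CPM per kb. The order in the middle depends on the transcript length: per kb of all annotated exons SIX2 (2.49) stood above EYA1 (1.53) and WT1 (1.11). In acidosis PAX2 (0.435 ± 0.154 CPM per kb, n = 3) and SIX2 (0.161 ± 0.07, n = 3) exchanged places, and their samples did not overlap.

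**Figure D1:**
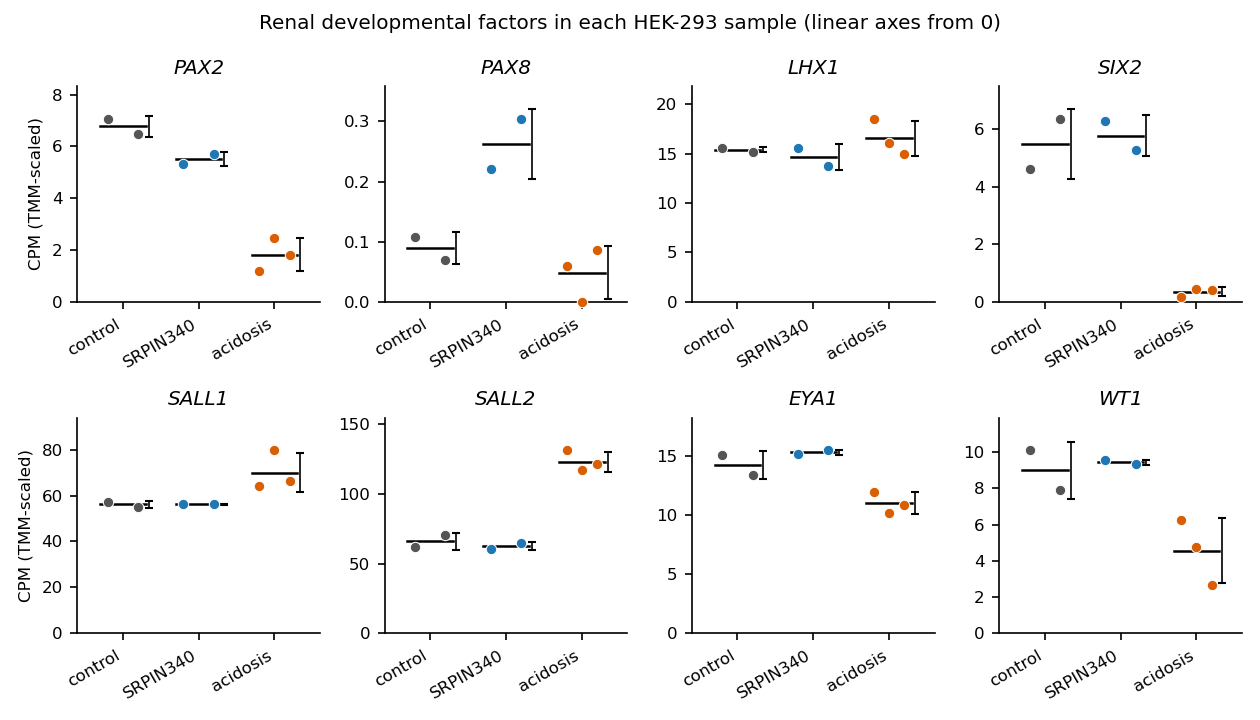
Level of each of the 8 factors in CPM (TMM-scaled, linear axes from 0) in every sample of the control, SRPIN340 and acidosis groups; points are samples, the long line is the mean and the bar at its right is 1 SD. The acidosis samples of SIX2 (0.178 to 0.459 CPM) and PAX2 (1.19 to 2.48 CPM) lie below all others, those of SALL2 (117 to 131 CPM) lie above all others, and those of LHX1 overlap the other groups.

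Acidosis moved the factors in different directions. SIX2 and PAX2 fell 16.1-fold and 3.8-fold, WT1 and EYA1 fell less, SALL2 rose 1.87-fold, SALL1 rose slightly, and LHX1 did not pass the test. Here a gene passed at a Benjamini-Hochberg adjusted p under 0.05 in edgeR's quasi-likelihood test over all tested genes, and was called when its log2 fold change was also over 1 in size. Of the 7 tested factors 6 passed, 4 lower and 2 higher, in a comparison in which 66.7% of all genes passed and 34.2% passed lower. SIX2 and PAX2 were called, both lower, where 33.5% of all genes were called, 19.1% lower and 14.4% higher. For 6 factors the acidosis and control samples did not overlap, as for 76.5% of all genes. The median log2 fold change of the 7 tested factors was -0.37, against -0.052 over all tested genes.

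SIX2 showed the largest change of the factors. Its level was 4.61 and 6.35 CPM in control and 0.178, 0.459 and 0.43 CPM in acidosis. All acidosis samples were far below both control samples, with no overlap. In counts these are 128 and 181 against 3, 5 and 5, so the acidosis level rests on few counts. The log2 fold change was -4.01 ± 0.383 (SE; 95% confidence interval -4.87 to -3.14; edgeR adjusted p = 1.04e-05). It kept this direction and its call in all 15 alternative analyses, from -4.57 to -3.61. SIX2 passed the expression filter only because of its level in control (5.48 CPM on average) and with SRPIN340 (5.77 CPM). Its acidosis counts alone were too low for that filter, so a low level in acidosis did not keep it from being tested. This limit holds also where acidosis is compared with SRPIN340. In the fit with no filter the log2 fold change was -4.03.

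SIX2 belongs to the sine oculis homeodomain family, of which 4 of 5 listed members were tested. SIX3, known from the forebrain and eye, fell from 6.91 ± 0.754 to 0.765 ± 0.267 CPM (log2 fold change -3.14 ± 0.289 SE, edgeR adjusted p = 8.1e-06). SIX4 moved the other way, from 23.4 ± 1.16 to 41.8 ± 1.79 CPM, with a log2 fold change of 0.84 that remained above 0, at 0.26, with libraries scaled by total count only. SIX5 missed the threshold in edgeR with TMM (log2 fold change -0.47, adjusted p = 0.0678). With total count scaling it was called lower (log2 fold change -1.04, edgeR adjusted p = 0.00109). In all, 2 of the 4, SIX3 and SIX2 itself, were called lower, where 19.1% of all genes were.

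EYA1 (ENSG00000104313.20) spans 394593 bases at chr8:71197433-71592025 on the minus strand. Its protein binds SIX2 and brings it a transactivation domain. It was at 15.1 and 13.4 CPM in control and at 12.0, 10.2 and 10.9 CPM in acidosis. The acidosis samples were all lower, though the gap to the nearest control sample was small. The log2 fold change of -0.37 ± 0.143 (SE; 95% confidence interval -0.69 to -0.04) passed narrowly in edgeR (adjusted p = 0.0453). It passed in only 5 of 15 alternatives, whose adjusted p ran from 0.000192 to 0.231: DESeq2 gave 0.109, and it was lost without any 1 library other than acidosis repeat 1 (0.0577 to 0.231). In every fit that left out a control or SRPIN340 repeat, the lone sample of its group was assumed to vary like the other groups. Of its paralogs, EYA2 fell from 6.99 ± 0.756 to 2.92 ± 0.847 CPM (log2 fold change -1.23, edgeR adjusted p = 0.00372) and EYA4 from 57.7 ± 2.64 to 45.1 ± 0.688 CPM (log2 fold change -0.36, edgeR adjusted p = 0.00686). EYA3 missed the threshold in edgeR at a log2 fold change of 0.27 (adjusted p = 0.194). DACH1, a cofactor of this network, fell from 24.5 ± 2.79 to 10.5 ± 2.52 CPM (log2 fold change -1.23, edgeR adjusted p = 0.000269). Of the 6 tested genes of this partner network (SIX4, SIX5, EYA2, EYA3, EYA4 and DACH1) 2 were called lower and 0 higher by edgeR, where 33.5% of all genes were called, and DESeq2 gave the same counts.

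PAX2 was at 7.06 and 6.49 CPM in control and at 1.19, 2.48 and 1.81 CPM in acidosis. The groups stood well apart. The log2 fold change was -1.93 ± 0.291 (SE; 95% confidence interval -2.58 to -1.27; edgeR adjusted p = 0.00024), and in 15 alternatives it lay between -2.5 and -1.66 with the call kept. PAX8, its close relative, gave 3 and 2 counts in control and 1, 0 and 1 counts in acidosis. These sums, 5 and 2, have a ratio of 0.572 per scaled total, with an exact 95% interval from 0.0544 to 3.49 that covers counting error only. No difference in PAX8 was detectable at this depth.

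The PAX family moved one way in acidosis: all 6 tested members passed lower, with PAX2 and PAX5 called and a median log2 fold change of -0.98, where 34.2% of all genes passed lower. Of the 6, 1 was called lower with RLE size factors or in DESeq2 and 6 with total count scaling, which lowers all genes. PAX3 and PAX7, factors of neural crest and muscle, had log2 fold changes of -0.89 and -0.99. For PAX6, a factor of eye and brain, the value was -0.95, a fall from 37.7 ± 2.91 to 19.5 ± 3.32 CPM (edgeR adjusted p = 0.000373). PAX9 fell from 11.2 ± 0.0218 to 5.73 ± 1.22 CPM, by 0.97 on the log2 scale. PAX5, a B cell factor, is the least firm of them, at 1.14 ± 0.172 and 0.465 ± 0.207 CPM (log2 fold change -1.33, edgeR adjusted p = 0.0468), and with RLE size factors its adjusted p was 0.0508, with DESeq2 0.144, within a range of 0.0086 to 0.144 over the scalings and tools. The other 5 passed lower also with libraries scaled by total count only, by RLE size factors and in DESeq2. PAX4 was at 0 in every sample.

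WT1 was at 10.1 and 7.9 CPM in control and at 6.24, 4.77 and 2.67 CPM in acidosis. The groups did not overlap, but the acidosis samples were spread over a wide range. Its log2 fold change of -0.96 ± 0.288 (SE; 95% confidence interval -1.6 to -0.31) passed in edgeR (adjusted p = 0.0144) and fell just short of the fold limit. Without control repeat 1 it failed the test, at a log2 fold change of -0.78 (adjusted p = 0.106, the highest of 15 alternatives, the lowest being 0.000932). It was called in 3 alternatives, namely without control repeat 2 (log2 fold change -1.14), without acidosis repeat 1 (-1.28) and with total count scaling (-1.53).

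SALL2 moved against these genes. It was at 61.8 and 70.2 CPM in control and at 131, 117 and 121 CPM in acidosis. Every acidosis sample was well above both control samples. The log2 fold change was 0.90 ± 0.0916 (SE; 95% confidence interval 0.70 to 1.11; edgeR adjusted p = 1.58e-05), and it passed as higher in all 15 alternatives, from 0.33 with total count scaling to 0.98. SALL1 was at 57.3 and 55.0 CPM in control and at 64.0, 79.6 and 66.1 CPM in acidosis. Its acidosis samples were all above control, and repeat 2 stood above the other two. The log2 fold change of 0.31 ± 0.106 (SE; edgeR adjusted p = 0.0251) turned to -0.26 with total count scaling (adjusted p = 0.056). It no longer passed without control repeat 1 (0.0712), control repeat 2 (0.138) or acidosis repeat 2 (0.0561), nor with only the control and acidosis groups in the fit (0.062), within 0.0127 to 0.138 over all alternatives. The other paralogs did not pass: SALL3 had a log2 fold change of -0.14 (edgeR adjusted p = 0.653) and SALL4, a factor of pluripotent cells, 0.33 (edgeR adjusted p = 0.738).

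LHX1 was at 15.6 and 15.2 CPM in control and at 18.5, 16.1 and 15.0 CPM in acidosis. The groups overlapped. The log2 fold change was 0.11 ± 0.145 (SE; edgeR adjusted p = 0.529), with a 95% confidence interval from -0.22 to 0.43. With total count scaling it was -0.47 and passed (adjusted p = 0.0151, the lowest of 15 alternatives that reached up to 0.931), which is above that scaling's median of -0.626 over all genes.

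Other LIM homeodomain factors moved in both directions. LHX9, a factor of the gonad and nervous system, fell from 6.46 ± 0.344 to 0.803 ± 0.43 CPM (log2 fold change -3.05, edgeR adjusted p = 2.77e-05). ISL1, known from motor neurons and the heart, fell from 10.9 ± 0.954 to 2.54 ± 0.393 CPM (log2 fold change -2.11, edgeR adjusted p = 9.05e-06). ISL2 rose from 9.7 ± 1.03 to 26.5 ± 2.84 CPM (log2 fold change 1.45, edgeR adjusted p = 1.81e-05). LHX2 and LHX4 passed lower, with log2 fold changes of -0.67 and -0.80. LMX1B (-0.14), LMX1A (-1.05) and LHX6 (0.60) did not pass. The family's median log2 fold change over 9 tested genes was -0.67. Of 6 tested cofactors of LIM homeodomain proteins 3 passed lower and 1 higher, where 34.2% of all genes passed lower. By edgeR with TMM or by DESeq2 0 of these cofactors were called, where edgeR called 33.5% of all genes. With total count scaling 3 were called lower, as were 5202 of all 14863 tested genes.

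**Figure D2:**
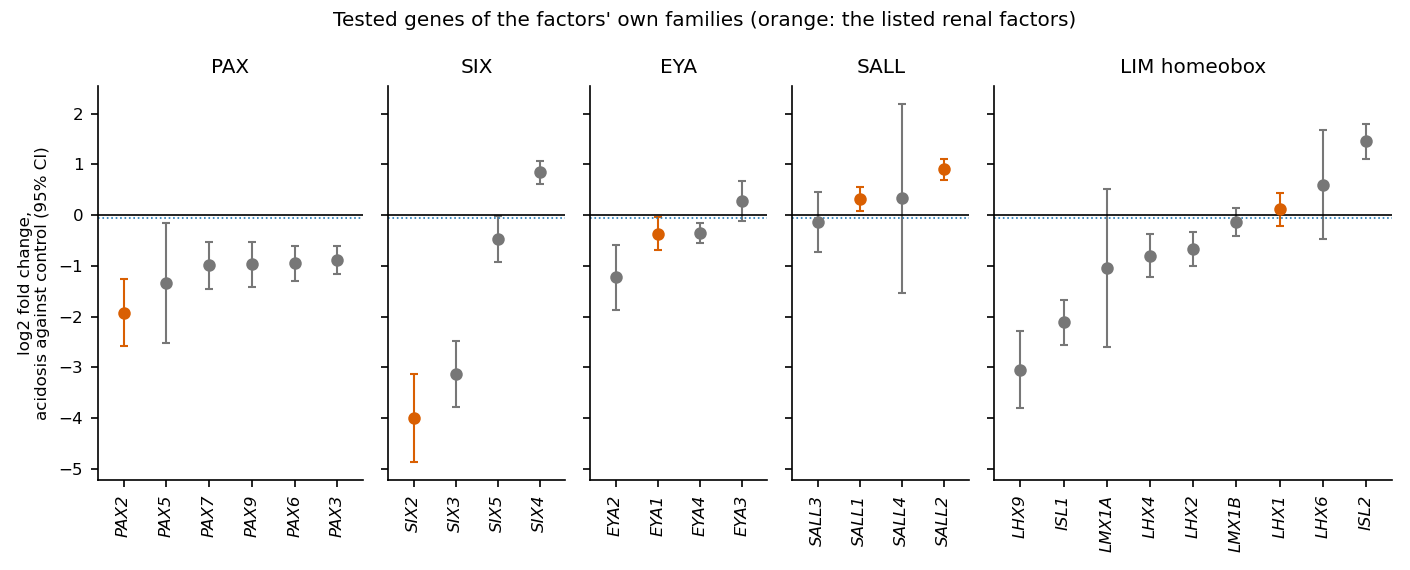
Log2 fold change of acidosis against control for the tested genes of the PAX, sine oculis, EYA, SALL and LIM homeobox families, with 95% confidence intervals from edgeR; orange points are the factors described here, grey points their paralogs, and the dotted line is the median of all tested genes (-0.052). All 6 PAX genes lie below 0, while SIX4 (0.84) and ISL2 (1.45) lie above 0 in families with members below -3.

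Scaling sets where 0 lies for the middle of this set. RLE size factors gave nearly the same values as TMM for each factor, -3.98 for SIX2 and 0.93 for SALL2 among them. Total count scaling moved all of them down, which turned the sign of LHX1 and SALL1. TBP, the gene that served as the RT-PCR reference in the study, itself fell from 26.8 ± 1.6 to 20.9 ± 1.77 CPM in acidosis (log2 fold change -0.36, edgeR adjusted p = 0.0225). Relative to TBP, SIX2 changed by -3.65, PAX2 by -1.56, WT1 by -0.60, EYA1 by -0.01, LHX1 by 0.47, SALL1 by 0.67 and SALL2 by 1.26 on the log2 scale. Each scaling shifts all genes by nearly the same amount, so the order of the factors is kept by construction, and LHX1 and SALL1 changed side relative to 0.

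**Figure D3:**
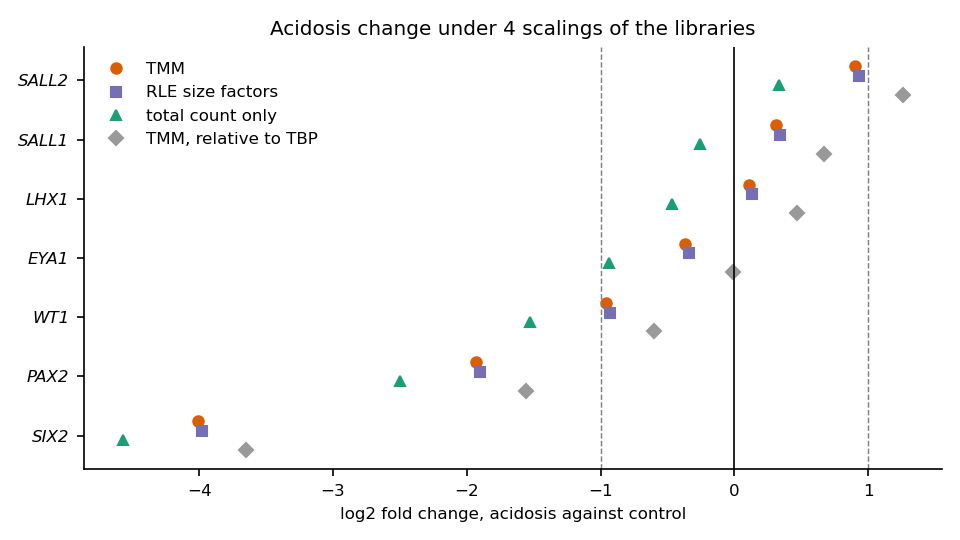
Log2 fold change of acidosis against control for the 7 tested factors under 4 scalings (TMM, RLE size factors, total count only, and TMM relative to TBP); dashed lines mark -1 and 1. SIX2, PAX2 and WT1 lie below 0 and SALL2 above 0 under all 4, while LHX1 and SALL1 change sign with total count scaling (-0.47 and -0.26).

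With SRPIN340 none of the 7 tested factors passed in edgeR, and 0 reached an unadjusted p under 0.05. In DESeq2 0 passed, but PAX2 and SIX2 were given no adjusted p there. In this comparison 2.3% of all genes passed and 0.323% were called. The log2 fold changes lay between -0.30 and 0.11, with a median of 0.00 against 0.002 over all genes. PAX2 had the largest, with 5.31 and 5.69 CPM against 7.06 and 6.49 CPM in control (log2 fold change -0.30, 95% confidence interval -0.95 to 0.35, edgeR adjusted p = 0.654). Its SRPIN340 samples were both below control, and those of EYA1, at 15.2 and 15.5 CPM, both above. Over all genes, 54.1% had groups without overlap.

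For the other 5 tested factors the samples overlapped. SIX2 was at 6.27 and 5.28 CPM with SRPIN340, a log2 fold change of 0.07 whose 95% confidence interval ran from -0.62 to 0.77. WT1, at 9.55 and 9.34 CPM, also gave 0.07, with an interval from -0.60 to 0.74. The more abundant genes were bounded more tightly: SALL1, at 56.1 and 56.4 CPM, between -0.25 and 0.26, SALL2, at 60.6 and 64.5 CPM, between -0.30 and 0.14, and LHX1, at 15.6 and 13.7 CPM, between -0.42 and 0.28. For EYA1 the log2 fold change was 0.11 (95% confidence interval -0.23 to 0.45). PAX8 gave 6 and 8 counts against 3 and 2 in control. The ratio per scaled total was 2.95, with an exact 95% interval from 1.0 to 10.4 that covers counting error only.

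**Figure D4:**
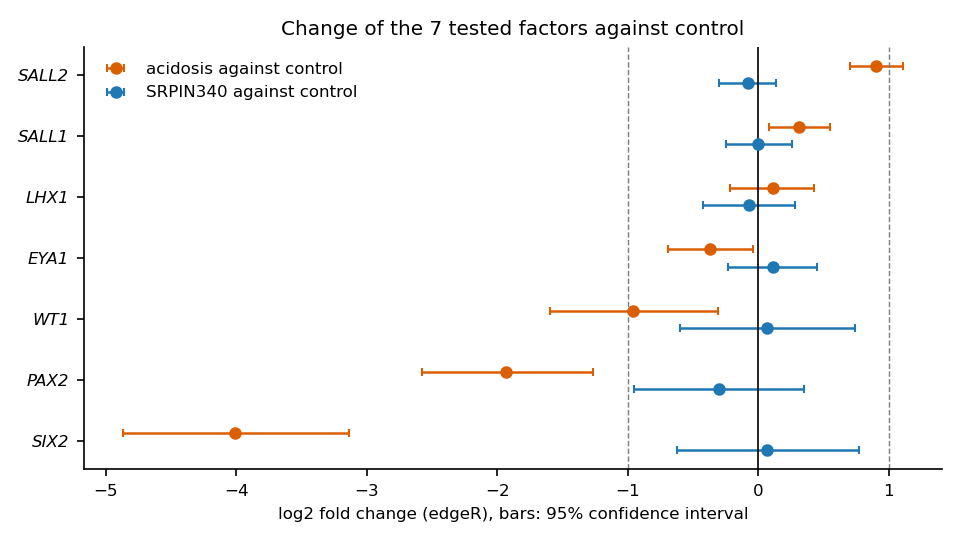
Log2 fold change of the 7 tested factors in acidosis (orange) and with SRPIN340 (blue) against control, with 95% confidence intervals from edgeR; the solid line is no change and dashed lines mark -1 and 1. All SRPIN340 intervals include 0 and lie within -0.95 and 0.77, while in acidosis only that of LHX1 includes 0.

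Both treatments share their control samples, so they were compared with each other directly. Here 6 of the 7 factors passed in edgeR, where 67.8% of all genes did, and 3 were called, all lower in acidosis, where 34.6% of all genes were called. SIX2 differed by -4.08 (edgeR adjusted p = 8.93e-06), PAX2 by -1.62 (0.000762) and WT1 by -1.03 (edgeR adjusted p = 0.00985) on the log2 scale. SALL2 was higher in acidosis by 0.98 (edgeR adjusted p = 8.95e-06) and SALL1 by 0.31 (0.0258), and EYA1 was lower, with a log2 fold change of -0.47 (0.0144). LHX1 did not pass (log2 fold change 0.18, 95% confidence interval -0.15 to 0.50). The call of WT1 rests on the fold limit, and its log2 fold change was -0.78 with the replicate number as a block and -0.76 without acidosis repeat 3. With RLE size factors WT1 lost its call and SALL2 (1.01) was called higher, so that 3 factors were again called. SALL2 was also called higher in DESeq2 (1.00) and without SRPIN340 repeat 2 or acidosis repeat 2 (1.02 in each). With total count scaling SALL1 and LHX1 passed as lower in acidosis, with log2 fold changes of -0.30 (adjusted p = 0.0301) and -0.44 (0.0201). EYA1 was then called lower (log2 fold change -1.09, edgeR adjusted p = 6.73e-05). Over 15 alternatives the adjusted p reached 0.12 for SALL1 and 0.0777 for EYA1, both of which were lost without SRPIN340 repeat 1 or 2, and SALL1 also without acidosis repeat 2 (0.0587) and with only these groups in the fit (0.0502).

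Genes that mark the stages in which these factors act were counted beside them. Of 19 tested nephron progenitor genes 4 were called lower and 2 higher in acidosis, with a median log2 fold change of 0.09. In this and the lists that follow, the counts stand beside 19.1% of all genes called lower and 14.4% called higher. By the test alone 4 of the 19 passed lower and 5 higher. CDH11, a cadherin of mesenchyme, fell from 45.6 ± 5.23 to 12.2 ± 3.14 CPM (log2 fold change -1.92) and MYCN, a factor of proliferating progenitors, from 3.75 ± 1.28 to 0.879 ± 0.0934 CPM (-2.10). MEOX1 went from 0.817 ± 0.0856 CPM to 0 in all acidosis libraries, at least 3.44-fold lower against a floor of 3 counts per library. With 0 in acidosis, MEOX1 was tested only because of its level in control and with SRPIN340 (0.448 CPM on average). It is counted among the 4 called lower, but no call is read from it. The calls in the other direction were HOXD11, from 22.9 ± 3.55 to 58.4 ± 1.72 CPM (1.35), and PHF19, from 36.0 ± 10.4 to 77.4 ± 13.2 CPM (1.11), both named after their values were seen.

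Among 19 tested ureteric bud genes 3 were called lower and 5 higher, with a median log2 fold change of 0.51. RET, the receptor through which GDNF drives bud growth, fell from 1.85 ± 0.134 to 0.248 ± 0.202 CPM (log2 fold change -2.75). RET is counted among the 3 called lower, but no call is read from it. ETV5 and ETV4, targets of receptor tyrosine kinase signaling, rose from 8.12 ± 2.52 to 32.8 ± 0.618 CPM (2.01) and from 3.33 ± 0.287 to 8.93 ± 0.655 CPM (1.42). Of 17 early nephron genes 5 were called lower and 2 higher (median log2 fold change 0.57). The Notch receptor NOTCH2 fell from 201 ± 2.71 to 52.9 ± 5.88 CPM (-1.92) and LGR5 from 26.0 ± 2.14 to 6.52 ± 0.755 CPM (-2.00), whereas HES1, a Notch target in many tissues, rose from 58.2 ± 3.4 to 403 ± 25.2 CPM (2.79). Apart from RET, all of these changes have an edgeR adjusted p of at most 0.00249.

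WT1 continues in podocytes, and of 16 tested podocyte genes 2 were called lower and 1 higher (median log2 fold change 0.23). EFNB1, an ephrin of the slit diaphragm, fell from 29.1 ± 0.399 to 2.92 ± 0.632 CPM (log2 fold change -3.29). CDKN1C, an inhibitor of the cell cycle, rose from 2.52 ± 0.00413 to 9.84 ± 0.602 CPM (1.96). CD2AP, an adaptor of the slit diaphragm, fell from 161 ± 33.9 to 78.5 ± 8.18 CPM (-1.04). Of 9 tested genes of the mature tubule 0 were called by edgeR with TMM or by DESeq2, and 1 passed, ATP6V1B1 (log2 fold change 0.98, edgeR adjusted p = 0.0195), named after its value was seen, which was called higher with RLE size factors (1.00). With total count scaling the medians of the progenitor, bud, early nephron and podocyte lists turned to -0.48, -0.07, -0.01 and -0.34. The calls were then 6 lower and 0 higher for the progenitor list, 3 and 1 for the bud, 6 and 1 for the early nephron and 2 and 1 for the podocyte list. For this scaling, here and below, 5202 of the 14863 tested genes were called lower and 815 higher.

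Over all these lists and families, 130 genes other than the factors were tested. With SRPIN340, 3 of them passed and 1 was called in edgeR, where 2.3% of all genes passed and 0.323% were called. In DESeq2 9 passed and 2 were called, where 51 of 18021 genes were called. An unadjusted p under 0.05 was reached by 25. For these 25, and for the 9 that passed in DESeq2, no share over all genes is given. Neither count is therefore read as a result about the listed genes. The gene called by edgeR was GREM1, a BMP antagonist of the bud's surroundings, at 6.0 ± 0.738 CPM in control and 12.8 ± 0.289 CPM with SRPIN340 (log2 fold change 1.09, edgeR adjusted p = 0.0278). In acidosis 80 of the 130 passed and 41 were called, 24 lower and 17 higher, where 66.7% of all genes passed and 33.5% were called. The 24 include MEOX1, RET and POSTN, and the 17 include VWF and PTPRC, from all of which no call is read here.

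Markers of other cells were read in the same samples. The summed level of the 6 HEK-293 markers was 1410 to 1470 CPM in control and 3500 to 3510 CPM in acidosis, of which VIM alone held 867 ± 34.7 and 2710 ± 36.2 CPM. VIM and NEFM were called higher (log2 fold change 1.65 for each), KRT8 and NEFL passed higher, and INA (-0.70) and KRT18 (-0.26) passed lower. With total count scaling KRT8 (-0.0, edgeR adjusted p = 0.968) and NEFL (0.09, 0.392) did not pass, and INA was called lower (-1.27). The summed level of 12 renal stroma genes, of which 11 were detected, went from 251 to 279 CPM in control to 363 to 379 CPM in acidosis, with 3 called lower (PDGFRA, POSTN and MEIS2 at -1.94, -1.87 and -1.67) and 2 higher. POSTN, at 1.35 ± 0.529 CPM in control and 0.377 ± 0.159 CPM in acidosis, was tested because of its level at pH 7.4. It is counted among the 3 called lower, but no call is read from it. ALDH1A2, named after its value was seen, accounts for most of that sum's rise, from 92.3 ± 0.0791 to 195 ± 3.73 CPM, while the list's median log2 fold change was -0.44, and with total count scaling 5 of the list were called lower and 0 higher. Of 6 endothelial genes 3 were detected, with KDR called lower (-3.30), and the sum of the list went from 27.8 to 29.9 CPM to 17.9 to 22.8 CPM. VWF, at 0.124 ± 0.0229 CPM in control and 0.912 ± 0.964 CPM in acidosis, had an SD above its mean in acidosis. Its low level at pH 7.4 means that a rise was needed for it to be tested, and no call is read from it. Of 4 blood cell genes 2 were detected, and CD3E was at 0. The sum of the list went from 8.04 to 8.18 CPM in control to 11.0 to 16.5 CPM in acidosis, and CD68 passed higher, from 7.91 to 12.6 CPM on average (log2 fold change 0.67, edgeR adjusted p = 0.0128). With total count scaling CD68 did not pass (log2 fold change 0.1, edgeR adjusted p = 0.684). The limit given for VWF holds also for PTPRC, at a mean of 0.158 CPM in control and 0.714 CPM in acidosis. Of 7 adrenal cortex genes 3 were detected and 0 were called by edgeR with TMM or by DESeq2, 1 lower with total count scaling. The part of these genes in the changes of the renal factors was not tested.

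The genes with the most similar course were sought for each tested factor among 13461 tested genes that averaged 1 CPM or more. The measure was the root mean square distance between log2 CPM values over the 7 samples, each gene centred on its own mean. For SIX2 these were ASPHD2 (0.154) and HPS6 (0.193), with log2 fold changes of -3.57 and -3.68 in acidosis. For PAX2 they were MNX1 (0.12), a homeodomain factor of motor neurons, and CYP27C1 (0.146). WT1 was nearest to ZNF552 (0.112) and ETFBKMT (0.133), and EYA1 to ESD (0.0405) and GALK2 (0.0414). SALL2 was nearest to NDUFC1 (0.0382) and NME4 (0.0459), SALL1 to CRLF3 (0.0201) and SKIC3 (0.0323), and LHX1 to PDCD11 (0.0531) and SPC24 (0.0538). With 3 groups in 7 samples such likeness describes a shared course over these conditions.

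The genes next to the factors on the chromosome were looked at after their values had been seen. Of the 16 nearest tested neighbours, 1 on each side of each factor, 5 were called lower and 2 higher in acidosis, where 19.1% of all genes were called lower and 14.4% higher, and their median log2 fold change was -0.54. Both neighbours of SIX2 fell. SIX3, 59.1 kb away, fell by 3.14 on the log2 scale. SRBD1, 379 kb away, went from 38.2 ± 3.64 to 6.2 ± 1.39 CPM (log2 fold change -2.61). HIF1AN, 175 kb from PAX2, fell from 188 ± 2.4 to 35.3 ± 4.25 CPM (log2 fold change -2.41). SLF2, on the other side at 83 kb, was not called (-0.79). MSC, 250 kb from EYA1, fell from 7.22 ± 1.82 to 0.754 ± 0.335 CPM (log2 fold change -3.21), and XKR9, 407 kb from EYA1, was not called (0.72). MRM1, 328 kb from LHX1, was also called lower (log2 fold change -1.45), while AATF, only 4.31 kb from LHX1, was not called (-0.35). RCN1, 282 kb from WT1, and ZNG1B, 159 kb from PAX8, were called higher (1.11 and 1.36). The nearer neighbours of these factors, EIF3M at 148 kb from WT1 (-0.73) and PSD4 at 6.6 kb from PAX8 (-1.26), were not called. The neighbours of SALL1 and SALL2 were not called.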

How the data were processed

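The authors trimmed reads with Trimmomatic 0.39 and Trim Galore 0.6.6, estimated transcript abundance with Salmon 1.5.1 (Gencode, GRCh38.p13) and combined transcripts per gene in tximport, whose option is not stated. They deposited estimated counts per gene, with 1 column for each of the 7 samples and no normalization between samples. Of 9638 values above 0 in 2891 genes with a single transcript, 1.35% were whole within 0.01, so a count need not be a read. Of 19978 genes, 19977 matched GENCODE release 44.

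Counts were rounded and fitted in edgeR 4.0.16 (R 4.3.3) with TMM, filterByExpr and the quasi-likelihood test, all samples in one fit. Calls needed a Benjamini-Hochberg adjusted p under 0.05 over 14863 genes and an absolute log2 fold change over 1. Standard errors came from the test statistic. Alternatives were DESeq2 1.42.0, scaling, filter, rounding, samples in the fit, fold limit, a replicate block, each replicate left out, and TBP as reference. On simulated counts for 14863 genes, edgeR recovered 85% of acidosis changes of log2 size 1.5 and 96% of size 3, and 79% and 92% with SRPIN340, with 7 false calls in each comparison. Only 100 genes were changed at each size, in both directions evenly. A change of many genes and a shift of scaling like those in acidosis were not simulated. The 7 false calls are therefore no error rate for the acidosis calls. Sequences were searched with Python 3.11.15, and figures drawn with matplotlib 3.10.9.

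All factors, the tested members of their families, the 2 nearest courses per factor, the 3 largest acidosis calls and any SRPIN340 call per other list, and TBP were named. The factors and lists were chosen with earlier results of these data known. Some genes were left out of the lists and are not reported here.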

Additional observations from a re-analysis of the deposited data

How the results depend on the processing

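SIX2, PAX2 and SALL2 kept their direction and their side of the test in all 15 alternatives of acidosis against control. With no fold limit, 9917 genes and 6 factors were called in acidosis against control, and with a limit of 1.5-fold 7790 genes and 4 factors. For acidosis against SRPIN340 these were 10084 genes and 6 factors with no limit and 7960 genes with 1.5-fold. For SRPIN340 against control, where 48 genes were called, they were 342 and 141 genes. That count of 48 was 11 to 66 with each replicate left out in turn: 11 without SRPIN340 repeat 1, 24 without SRPIN340 repeat 2, 29 without control repeat 1 and 26 without control repeat 2. It was 66 without acidosis repeat 2, and the cause was not tested. No factor was called with SRPIN340 under any of these settings.

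Total count scaling reversed LHX1 and SALL1, to -0.47 and -0.26 against control and to -0.44 and -0.30 against SRPIN340 on the log2 scale; all of these but -0.26 then passed. For SRPIN340 against control, log2 fold changes near 0 changed sign with 1 replicate left out, over ranges of -0.16 to 0.02 for LHX1, -0.14 to 0.32 for SIX2, -0.03 to 0.03 for SALL1, -0.17 to 0.01 for SALL2 and -0.10 to 0.26 for WT1. SALL1 gave -0.00 in DESeq2 and with RLE size factors and -0.07 relative to TBP, and WT1 gave -0.00 relative to TBP. Between TMM and total count scaling, the share of acidosis calls that were higher went from 43.0% (2145 of 4985) to 13.5% (815 higher, 5202 lower).

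Samples of the same repeat number showed no strong shared deviation: the differences of repeat 1 minus repeat 2 correlated across genes by 0.0051 (control and SRPIN340), -0.101 (control and acidosis) and 0.0604 (SRPIN340 and acidosis). Acidosis repeat 3 is not covered by these values, and whether same-numbered repeats were handled together cannot be told from them. With the replicate number as a block, 27 genes were called with SRPIN340 against 48 without, and 2 factors in acidosis against control as without. Against SRPIN340, 2 factors were called with the block and 3 without, and EYA1 did not pass against control (adjusted p = 0.101, within 0.000192 to 0.231 over its alternatives). Totals down to 13615816 counts limit PAX8, and SIX2 in acidosis.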
